A study of Mus musculus with 9 samples.

Results

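Aldehyde dehydrogenases were followed across the brains of 3 mouse strains through every probe set annotated to 9 genes of the family: Aldh1a1, Aldh1a2, Aldh1a7, Aldh1b1, Aldh2, Aldh3a2, Aldh5a1, Aldh7a1 and Aldh9a1. Every probe set with 1 of these gene symbols was taken, which gave 16 probe sets of the 45037 tested, among 18193 genes with a probe set of 1 symbol. The strains were the inbred C57BL/6ByJ and BALB/cJ and the strain B6By.C.132.54, whose name marks a contribution of BALB/c to a C57BL/6By background. All were untreated male adults, 11 weeks old give or take 1 week, and the labels name no engineered allele or agent. Each array held RNA pooled from 10 hemispheres without cerebellum, with 3 arrays and 30 mice per strain (90 mice in all), so error bars describe pools and not single mice. The part of the genome that B6By.C.132.54 has from BALB/c is not given in the sources used here.

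Aldehyde dehydrogenases oxidise aldehydes to carboxylic acids with NAD or NADP as the electron acceptor. In brain they clear aldehydes made from monoamines, lipids and ethanol, and they also serve set metabolic steps, among them the synthesis of retinoic acid and the breakdown of GABA and lysine. Aldh1a1 is known as a marker of a subset of midbrain dopamine neurons, and loss of ALDH5A1 or ALDH7A1 function in people causes a disorder of GABA breakdown or vitamin B6-dependent epilepsy.

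Levels are given as log2 intensity of the deposited signals, and a difference is a log2 ratio of signals. The median probe set lay at 3.968, and probe sets below it are called dim here. The median is a cut by rank and not a detection limit, and no background level was estimated. A probe set is called where its adjusted p was under 0.05 (limma, moderated two-sided test, Benjamini-Hochberg adjustment over all 45037 probe sets). Of the 16 member probe sets, 10 lay at or above that median and 6 were dim. Each gene had at least 1 probe set above it except Aldh1a7 and Aldh1b1. Levels of different probe sets are not set against each other, because probes differ in how brightly they bind.

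Between BALB/cJ and C57BL/6ByJ, 2 of the 16 probe sets were called, those of Aldh1a1 and Aldh7a1, both lower in BALB/cJ. Over all probe sets 1.43% were called in this comparison, 0.921% lower and 0.508% higher in BALB/cJ. Between B6By.C.132.54 and BALB/cJ these 2 were called, both higher in B6By.C.132.54, where 1.28% of all probe sets passed, 0.713% upward and 0.564% downward. When the replicate number entered the model as a block, 2 members were again called in each of these comparisons, while 2.12% and 1.85% of all probe sets were called. An unadjusted p under 0.05 was reached by 3 of 16 members in the first comparison (7.58% of all probe sets) and by 2 of 16 in the other (7.5%). These comparisons share the BALB/cJ arrays, so the count in one is not independent of the other. Between B6By.C.132.54 and C57BL/6ByJ none of the 16 was called by limma, and 1 had an unadjusted p under 0.05; over all probe sets 0.0% were called and 3.89% had an unadjusted p under 0.05. In bulk tissue, fewer cells of a type and less RNA per cell cannot be told apart. The sequences under the probes were not examined in the strains, so whether a difference in signal is one in RNA was not tested.

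The median difference over the 16 probe sets was -0.0577 for BALB/cJ against C57BL/6ByJ, beside 0.0181 over all probe sets. It was -0.0528 for B6By.C.132.54 against C57BL/6ByJ (all probe sets -0.0126) and 0.0281 for B6By.C.132.54 against BALB/cJ (all probe sets -0.024). The groups of arrays did not overlap for 3 of 16 members between the parental strains (12.6% of all probe sets), 1 of 16 between B6By.C.132.54 and C57BL/6ByJ (6.62%) and 2 of 16 between B6By.C.132.54 and BALB/cJ (9.51%).

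**Figure D1:**
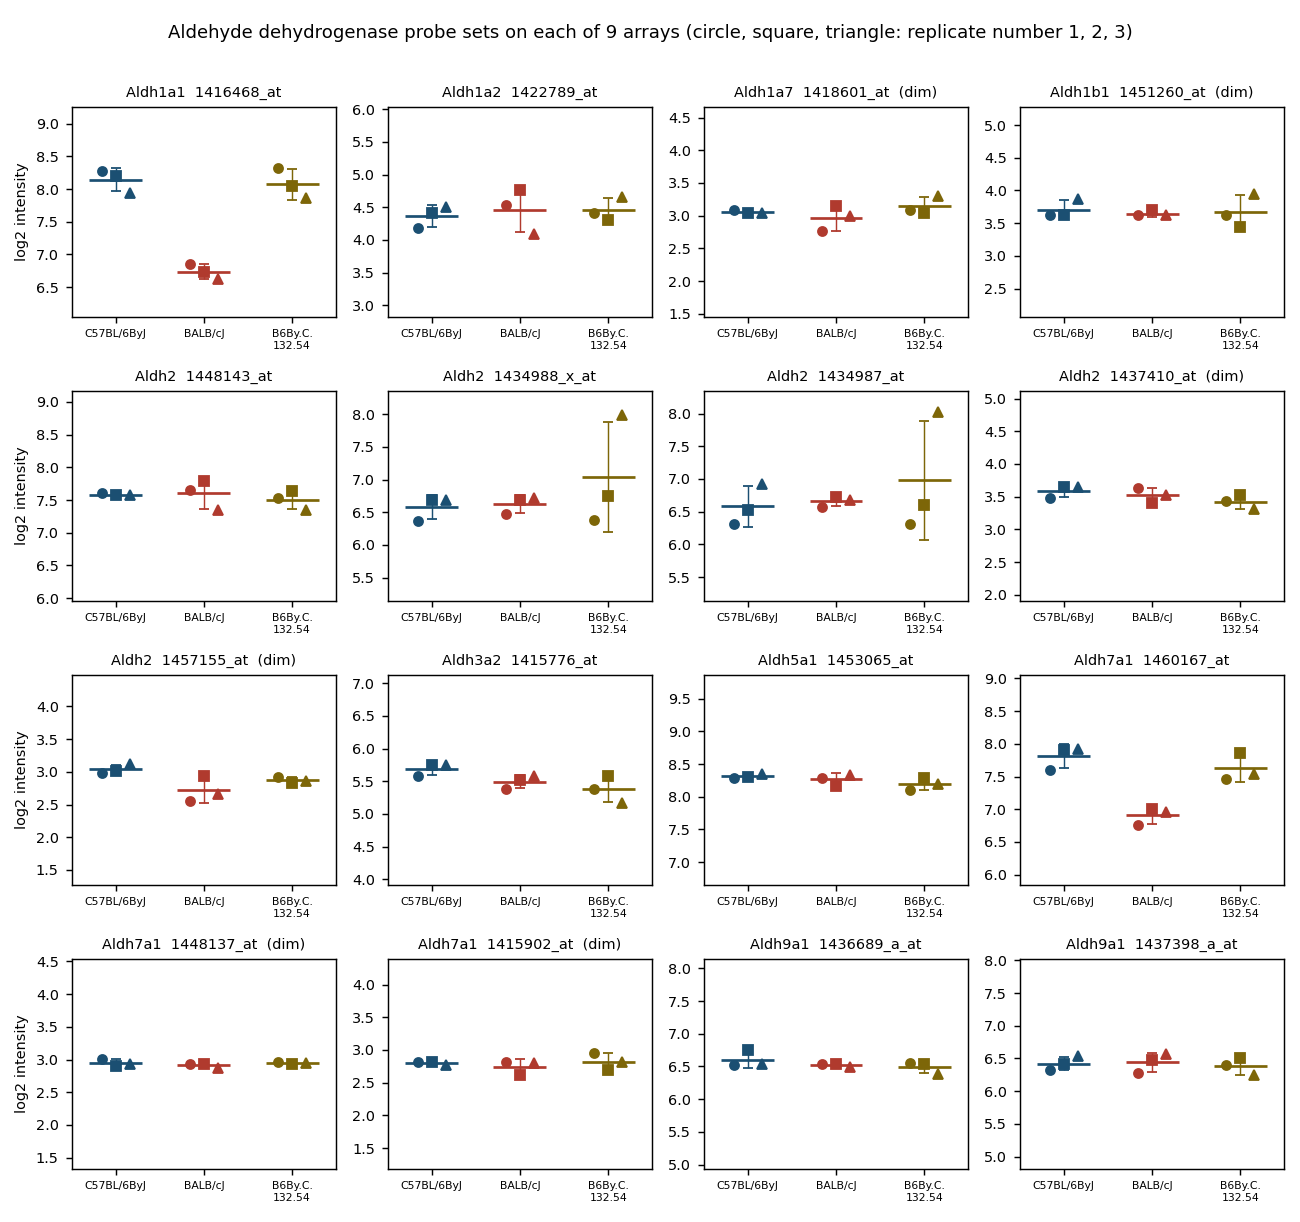
Log2 intensity of the 16 member probe sets on each of the 9 arrays, 1 panel per probe set, with points for single arrays of the 3 strains lines for the strain means and error bars for 1 SD. BALB/cJ sits apart in Aldh1a1 (6.62 to 6.85, the other strains 7.86 to 8.32) and in 1 probe set of Aldh7a1 (6.76 to 7.01, the others 7.47 to 7.93).

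Aldh1a1, Aldh1a2 and Aldh1a7 are close relatives. ALDH1A1 and ALDH1A2 oxidise retinaldehyde to retinoic acid, and Aldh1a7 is a rodent gene that lies beside Aldh1a1 on chromosome 19. The bases before a start site of each are shown because Aldh1a1, called in the comparisons, and Aldh1a7, dim in all strains, were alike there, with Aldh1a2 on chromosome 9 for comparison. They are RefSeq's 250 bases upstream of the start in GRCm38.p6, 5′ to 3′ on the gene's own strand, at chr19:20601718-20601967 (plus strand), chr19:20727557-20727806 (minus strand) and chr9:71215539-71215788 (plus strand). Capitals mark the octamer ATGCAAAT.
Aldh1a1: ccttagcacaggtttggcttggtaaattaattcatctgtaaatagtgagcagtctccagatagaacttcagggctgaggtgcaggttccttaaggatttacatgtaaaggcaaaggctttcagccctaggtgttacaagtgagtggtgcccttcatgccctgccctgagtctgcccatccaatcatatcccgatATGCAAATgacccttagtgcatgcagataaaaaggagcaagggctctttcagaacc
Aldh1a7: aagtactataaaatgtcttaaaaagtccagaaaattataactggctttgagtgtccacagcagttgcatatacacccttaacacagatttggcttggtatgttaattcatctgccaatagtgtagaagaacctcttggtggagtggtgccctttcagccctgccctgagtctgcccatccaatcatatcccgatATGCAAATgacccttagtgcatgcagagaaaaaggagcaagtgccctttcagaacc
Aldh1a2: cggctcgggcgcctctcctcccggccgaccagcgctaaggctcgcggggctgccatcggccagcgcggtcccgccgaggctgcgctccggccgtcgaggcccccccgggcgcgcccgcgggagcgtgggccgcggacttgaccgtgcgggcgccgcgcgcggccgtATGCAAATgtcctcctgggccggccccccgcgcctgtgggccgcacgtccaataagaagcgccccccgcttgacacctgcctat
In the last 100 bases, Aldh1a1 and Aldh1a7 had the same base at 94 positions without gaps, with a longest shared run of 65. The octamer lay 56 to 49 bases before the start in both, and 84 to 77 bases before it in Aldh1a2. It was picked after these sequences were seen. Searched on both strands, it was found in 3 of the 8 member windows searched, which cover only 7 of the member genes. Those 3 are the windows shown, from which it was picked. In Aldh1a1 and Aldh1a7 it lies within the shared run, so these are not separate finds. Among all 32851 windows of this length the octamer was found in 526 (1.6%), and the member count is no test against that share. The window at a start of Aldh1a1 further upstream (chr19:20492333-20492582, plus strand) had none. The motif CCAAT, which shares no base with the octamer where both occur here, stood at 72 to 68 bases before the start in Aldh1a1, Aldh1a7 and Aldh5a1, was found in 6 of the 8 windows, and was in 33.8% of all. The Aldh1a2 window was GC-rich (77.6% G or C and 40 CpG), against 46.4% and 43.2% with 1 CpG each for Aldh1a1 and Aldh1a7 and a median of 52.4% and 6 CpG over all windows. A match is a description of these letters and not a binding site. The letters are those of the reference assembly. The bases of the 3 strains at these places were not examined, so they say nothing about a strain difference.

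Aldh1a1 (probe set 1416468_at, chromosome 19) measured 8.28, 8.21 and 7.95 on C57BL/6ByJ replicates 1 to 3. BALB/cJ measured 6.85, 6.73 and 6.62, and B6By.C.132.54 measured 8.32, 8.04 and 7.86. All BALB/cJ arrays lay below all others, and the arrays of the other strains interleaved. Same-numbered arrays of BALB/cJ and C57BL/6ByJ differed by -1.43, -1.48 and -1.33, a narrower range than the arrays within C57BL/6ByJ.

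The mean of Aldh1a1 was 6.73 ± 0.114 in BALB/cJ and 8.14 ± 0.174 in C57BL/6ByJ (SD, n = 3 each), 2.66-fold lower in BALB/cJ with a 95% interval of 2.17 to 3.25 (limma adjusted p = 0.000182). B6By.C.132.54 averaged 8.08 ± 0.235 (n = 3), which was 1.34 above BALB/cJ on the log2 scale (interval 1.05 to 1.63; limma adjusted p = 0.000294). Its difference from C57BL/6ByJ was -0.07 (95% interval -0.36 to 0.22), which is 4.79% of the parental difference (limma adjusted p = 0.954). In order, C57BL/6ByJ and B6By.C.132.54 did not differ beyond their spread, and BALB/cJ stood below both. Among the 415 probe sets called lower in BALB/cJ than in C57BL/6ByJ, Aldh1a1 ranked 88th by size of difference. The calls against BALB/cJ held in all 15 alternative settings, with adjusted p up to 0.00218 against C57BL/6ByJ and up to 0.00321 against B6By.C.132.54.

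Markers of dopamine neurons were read beside Aldh1a1. None of the 8 was called in the comparisons. Their summed intensity was 356.9 to 369.8 in C57BL/6ByJ, 319.2 to 358.1 in BALB/cJ and 320.3 to 409.2 in B6By.C.132.54. Such sums, here and below, lean on the brightest probe sets of a list, in this list on that of Nr4a2. The list's median difference of BALB/cJ from C57BL/6ByJ was -0.0326. Ddc, the decarboxylase that makes dopamine, measured 5.20 ± 0.103 in BALB/cJ and 5.69 ± 0.105 in C57BL/6ByJ (n = 3 each), without overlap of the arrays, and was not called (log2 difference -0.49; limma unadjusted p = 0.0449, adjusted p = 0.636, or 0.238 with the replicate block). Th, the tyrosine hydroxylase of dopamine synthesis, measured 5.52 ± 0.172 in BALB/cJ and 5.40 ± 0.0938 in C57BL/6ByJ. The differences were -0.21 for the vesicular transporter Slc18a2, -0.05 for the dopamine transporter Slc6a3 and -0.06 for the brightest marker, the transcription factor gene Nr4a2, with overlapping arrays. The part of these markers in the difference of Aldh1a1 was not tested. Pitx3, En1 and Foxa2, transcription factors of these neurons, were dim.

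Aldh1a2 (1422789_at, chromosome 9), best known from meninges in the brain, measured 4.19, 4.40 and 4.51 in C57BL/6ByJ, 4.53, 4.77 and 4.09 in BALB/cJ and 4.40, 4.30 and 4.66 in B6By.C.132.54. The 3 strains overlapped. The BALB/cJ mean was 0.09 above that of C57BL/6ByJ, with a 95% interval of -0.27 to 0.46, so differences up to those bounds remain possible. None of the 7 markers of meninges and fibroblasts was called. Their summed intensity was 521.9 to 580.9, 521 to 600.5 and 561.8 to 579 in C57BL/6ByJ, BALB/cJ and B6By.C.132.54, and Col1a1 and Lum were dim.

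Aldh1a7 (1418601_at) was dim on every array, between 2.76 and 3.30, and was not called in the comparisons. Its values were 3.08, 3.04 and 3.04 in C57BL/6ByJ, 2.76, 3.15 and 3.00 in BALB/cJ and 3.09, 3.04 and 3.30 in B6By.C.132.54. The strains overlapped.

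Genes of the retinoid pathway were read from a list of 25, of which 22 were measured, each by its brightest probe set. None was called in any of the 3 comparisons. The median difference of BALB/cJ from C57BL/6ByJ was -0.025. Rdh13, a retinol dehydrogenase family member, had the lowest adjusted p (0.07002, log2 difference 0.48, limma). The brightest, Ttr, the carrier of thyroxine and of the retinol-binding protein, made chiefly in choroid plexus, measured 11.94 ± 0.188 in BALB/cJ and 12.05 ± 0.139 in C57BL/6ByJ.

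ALDH2 is the mitochondrial enzyme that clears acetaldehyde and reactive lipid aldehydes. Aldh2 (chromosome 5) had 5 probe sets, of which 3 were above the median and 2 were dim. The brightest, 1448143_at, measured 7.61, 7.57 and 7.57 in C57BL/6ByJ, 7.66, 7.80 and 7.35 in BALB/cJ and 7.53, 7.64 and 7.35 in B6By.C.132.54. The strains overlapped, and BALB/cJ differed from C57BL/6ByJ by 0.02.

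The other probe sets of Aldh2 above the median were set apart by 1 array. With 1434987_at, C57BL/6ByJ measured 6.31, 6.52 and 6.93, BALB/cJ 6.57, 6.73 and 6.67, and B6By.C.132.54 6.31, 6.60 and 8.02. With 1434988_x_at, a probe set whose suffix marks probes that may also match other transcripts, the values were 6.37, 6.69 and 6.69, then 6.47, 6.69 and 6.72, then 6.38, 6.75 and 7.98. In both, B6By.C.132.54 replicate 3 lay more than 1 log2 unit above all other arrays, while 1448143_at gave that array 7.35, at the low end of its values.

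B6By.C.132.54 replicate 3 exceeded all 8 other arrays by more than 1 log2 unit in 31 probe sets, whereas each other array did so in 0 to 2. The size of that gap was chosen after the values were seen. Both Aldh2 probe sets were among the 31, with gaps of 1.229 for 1434988_x_at and 1.096 for 1434987_at. With that array, B6By.C.132.54 lay 0.45 above C57BL/6ByJ in 1434988_x_at and 0.39 above it in 1434987_at. Without it the differences were -0.02 and -0.13, and neither was called with or without it.

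The dim probe sets of Aldh2 gave no call. In 1457155_at all BALB/cJ arrays (2.56, 2.93 and 2.66) lay below all C57BL/6ByJ arrays (2.99, 3.01 and 3.12), with an adjusted p of 0.31 (limma). The B6By.C.132.54 arrays (2.93, 2.83 and 2.86) lay below those of C57BL/6ByJ too. In 1437410_at values ran from 3.31 to 3.65 and the strains overlapped.

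ALDH1B1 is another mitochondrial enzyme that acts on acetaldehyde. Aldh1b1 (1451260_at, chromosome 4) was dim on every array. It measured 3.62, 3.62 and 3.87 in C57BL/6ByJ, 3.62, 3.69 and 3.62 in BALB/cJ and 3.62, 3.44 and 3.95 in B6By.C.132.54, with all strains overlapping. The other enzymes of ethanol oxidation gave no call among 6 genes measured; the brightest, Adh5, measured 6.71 ± 0.119 in BALB/cJ and 6.75 ± 0.0745 in C57BL/6ByJ. The list's median difference was -0.0322, and Adh1, Adh4 and Cyp2e1 were dim.

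**Figure D2:**
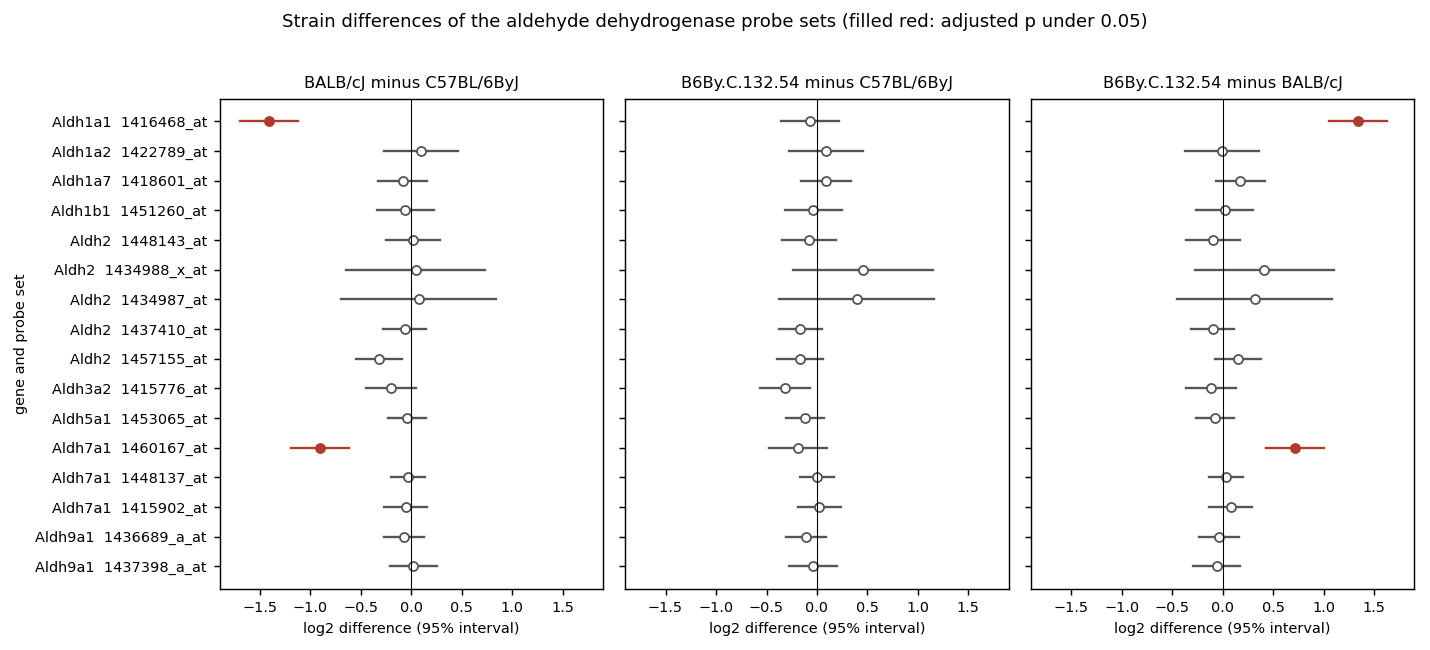
Log2 differences of the 16 member probe sets in the 3 strain comparisons, with 95% intervals from limma and the called ones filled. The intervals of Aldh1a1 and of 1460167_at of Aldh7a1 lie away from 0 in both comparisons with BALB/cJ. The differences of B6By.C.132.54 from C57BL/6ByJ in 1434988_x_at (0.45) and 1434987_at (0.39) of Aldh2 were -0.02 and -0.13 without 1 array.

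ALDH3A2 is the fatty aldehyde dehydrogenase of the endoplasmic reticulum, whose loss in people causes Sjögren-Larsson syndrome. Aldh3a2 (1415776_at, chromosome 11) measured 5.57, 5.75 and 5.75 in C57BL/6ByJ, 5.38, 5.52 and 5.58 in BALB/cJ and 5.39, 5.57 and 5.17 in B6By.C.132.54. The arrays of C57BL/6ByJ lay at the top of the range, with a narrow overlap with both other strains. The difference of B6By.C.132.54 from C57BL/6ByJ was -0.31 (95% interval -0.56 to -0.06), the 1 member with an unadjusted p under 0.05 in that comparison (limma, unadjusted p = 0.0182, adjusted p = 0.915). BALB/cJ differed from C57BL/6ByJ by -0.20 (limma adjusted p = 0.799), and its same-numbered arrays differed by -0.20, -0.22 and -0.18. None of these was called.

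Among 11 measured genes of fatty aldehyde and sphingolipid steps none was called, and the median difference of BALB/cJ from C57BL/6ByJ was -0.1452, beside 0.0181 over all probe sets. The brightest, Acsl3, a long-chain acyl-CoA synthetase, measured 7.95 ± 0.134 in BALB/cJ and 8.39 ± 0.0869 in C57BL/6ByJ, a difference of -0.45 (limma adjusted p = 0.111). With the replicate number as a block in the model it was called (limma adjusted p = 0.0308), 1 call of 11 where 1.34% of all probe sets were called lower under the block.

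ALDH5A1, succinic semialdehyde dehydrogenase, completes the breakdown of the transmitter GABA in mitochondria. Aldh5a1 (1453065_at, chromosome 13) measured 8.28, 8.30 and 8.35 in C57BL/6ByJ, 8.29, 8.17 and 8.34 in BALB/cJ and 8.11, 8.28 and 8.20 in B6By.C.132.54. The strains overlapped within a narrow range, and the differences were -0.04 for BALB/cJ and -0.12 for B6By.C.132.54, each against C57BL/6ByJ. None of the 10 genes of GABA breakdown and succinate was called, with a median difference of BALB/cJ from C57BL/6ByJ of -0.0153. The brightest, Sdhb, a subunit of succinate dehydrogenase, measured 10.18 ± 0.141 in BALB/cJ and 10.22 ± 0.0592 in C57BL/6ByJ.

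ALDH7A1, or antiquitin, oxidises the semialdehyde of the lysine breakdown pathway. Aldh7a1 (chromosome 18) had 1 probe set above the median, 1460167_at. It measured 7.60, 7.91 and 7.93 in C57BL/6ByJ, 6.76, 7.01 and 6.96 in BALB/cJ and 7.47, 7.86 and 7.54 in B6By.C.132.54. All BALB/cJ arrays lay below all others, and B6By.C.132.54 overlapped C57BL/6ByJ. The means were 7.81 ± 0.181, 6.91 ± 0.135 and 7.62 ± 0.211 (SD, n = 3 each).

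BALB/cJ lay below C57BL/6ByJ in Aldh7a1 by a log2 difference of -0.90 (SE 0.13; limma adjusted p = 0.00417), with same-numbered differences of -0.85, -0.90 and -0.96. B6By.C.132.54 lay above BALB/cJ by 0.71, or 1.64-fold with a 95% interval of 1.34 to 2.00 (limma adjusted p = 0.0211), with same-numbered differences of 0.71, 0.85 and 0.57. It differed from C57BL/6ByJ by -0.19 (95% interval -0.48 to 0.10, limma adjusted p = 0.915), with same-numbered differences of -0.13, -0.04 and -0.39. That is 20.9% of the parental difference, was not called, and has an interval that includes 0. The call against C57BL/6ByJ held in all 15 alternative settings (adjusted p up to 0.0306). The call between B6By.C.132.54 and BALB/cJ was lost in 6 of 15. These were the fits without BALB/cJ replicate 1 (limma adjusted p = 0.101), replicate 2 (0.0614) or replicate 3 (0.0758), without B6By.C.132.54 replicate 2 (0.0675), with a pseudocount of 16 (0.0563) and with only the arrays of these strains fitted (0.0551).

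The other probe sets of Aldh7a1 were dim on all arrays. Values of 1448137_at ran from 2.88 to 3.01 and those of 1415902_at from 2.61 to 2.96, the strains overlapped, and none was called. The difference between strains thus stands on 1 of 3 probe sets of this gene, and the others were dim.

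**Figure D3:**
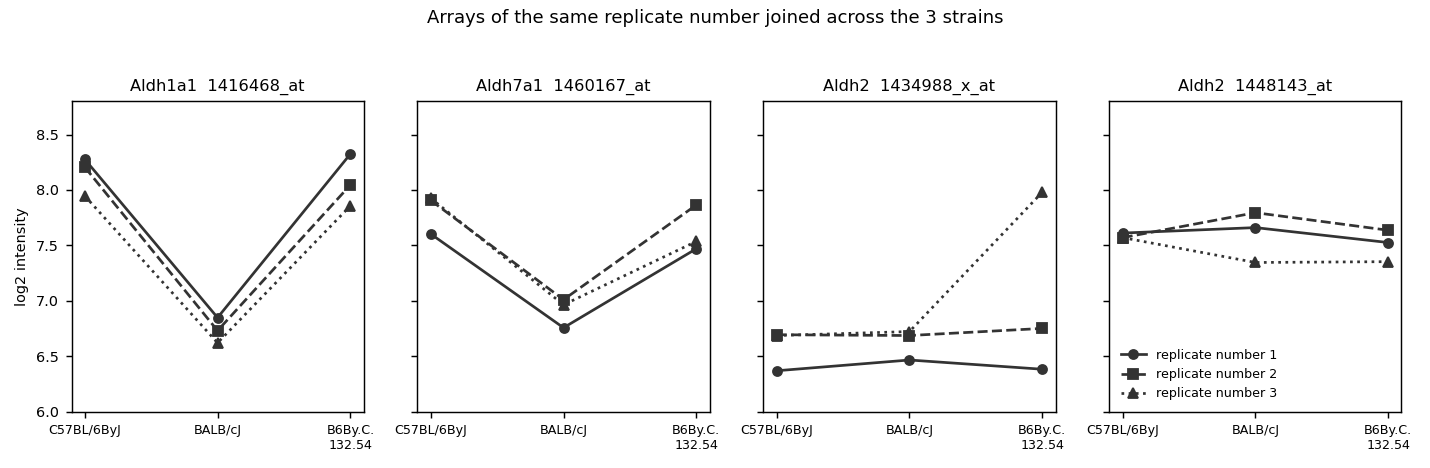
Log2 intensity of Aldh1a1, Aldh7a1 (1460167_at) and Aldh2 (1434988_x_at and 1448143_at) by strain, with a line joining the arrays of 1 replicate number. Every line falls from C57BL/6ByJ to BALB/cJ in Aldh1a1 (-1.43, -1.48 and -1.33) and in Aldh7a1 (-0.85, -0.90 and -0.96), and in 1434988_x_at the line of number 3 ends at 7.98.

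Of 11 measured genes of lysine breakdown and carnitine synthesis, 1 was called between the parental strains, where 1.43% of all probe sets were called and 0.921% were lower in BALB/cJ. Crym, which encodes a thyroid hormone-binding protein with ketimine reductase activity in the pipecolate branch of lysine breakdown, measured 7.06 ± 0.0415 in BALB/cJ and 7.67 ± 0.0511 in C57BL/6ByJ (n = 3 each; log2 difference -0.60, limma adjusted p = 0.00407). It was called higher in B6By.C.132.54 than in BALB/cJ by 0.49 (limma adjusted p = 0.0165). The brightest gene not called, Shmt1, a serine hydroxymethyltransferase, measured 6.58 ± 0.152 in BALB/cJ and 6.61 ± 0.0797 in C57BL/6ByJ. The list's median difference between these strains was -0.0329, and Aass, Aadat, Dhtkd1 and Pipox were dim.

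ALDH9A1 oxidises trimethylaminobutyraldehyde, a step in the synthesis of carnitine. Aldh9a1 (chromosome 1) had 2 probe sets above the median. In 1436689_a_at C57BL/6ByJ measured 6.52, 6.74 and 6.54, BALB/cJ 6.54, 6.54 and 6.50, and B6By.C.132.54 6.55, 6.54 and 6.38. In 1437398_a_at the values were 6.32, 6.41 and 6.53, then 6.28, 6.48 and 6.57, then 6.40, 6.51 and 6.25. The strains overlapped in both, and no call was made.

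Enzymes that make or remove monoamine aldehydes were read next. Of 7 genes measured, 1 was called between the parental strains, beside 1.43% of all probe sets (0.921% lower in BALB/cJ). Maob, the monoamine oxidase best known from astrocytes and serotonergic neurons, differed in BALB/cJ by -0.61 (limma adjusted p = 0.00818), and B6By.C.132.54 lay 0.40 above BALB/cJ without a call (limma adjusted p = 0.105). The brightest gene not called, Akr1a1, an aldehyde reductase, measured 10.56 ± 0.158 in BALB/cJ and 10.66 ± 0.145 in C57BL/6ByJ. The list's median difference was -0.1001.

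The family's other genes were taken as the closest set for comparison. Of 12 listed, 11 were measured by 20 probe sets, and none of the 20 was called by limma in any comparison, with or without the replicate block. An unadjusted p under 0.05 was reached by 1 of the 20 between the parental strains (7.58% of all probe sets), by 0 between B6By.C.132.54 and C57BL/6ByJ (3.89%) and by 2 between B6By.C.132.54 and BALB/cJ (7.5%). Their differences of BALB/cJ from C57BL/6ByJ ran from -0.216 to 0.336 with a median of 0.0973. The brightest, Aldh1l1, the folate enzyme used as an astrocyte marker, measured 7.56 ± 0.213 in BALB/cJ and 7.41 ± 0.131 in C57BL/6ByJ. Whether the members differ from this set was not tested.

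The genes that flank Aldh1a1 and Aldh7a1 were read to place their differences along the chromosome, by gene order alone. Of 10 genes around Aldh1a1, 5 on each side with 26 probe sets, 1 probe set was called between the parental strains, as were 1.43% of all probe sets. It belonged to Rorb, a nuclear receptor of the retinoic acid receptor-related orphan family, and differed by -0.77 (1439862_at, limma adjusted p = 0.000677). The other probe sets of Rorb differed by 0.08 and 0.18 and were not called. None of the 18 probe sets of the 10 genes around Aldh7a1 was called. Aldh1a7, the next measured gene beside Aldh1a1, was dim.

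**Figure D4:**
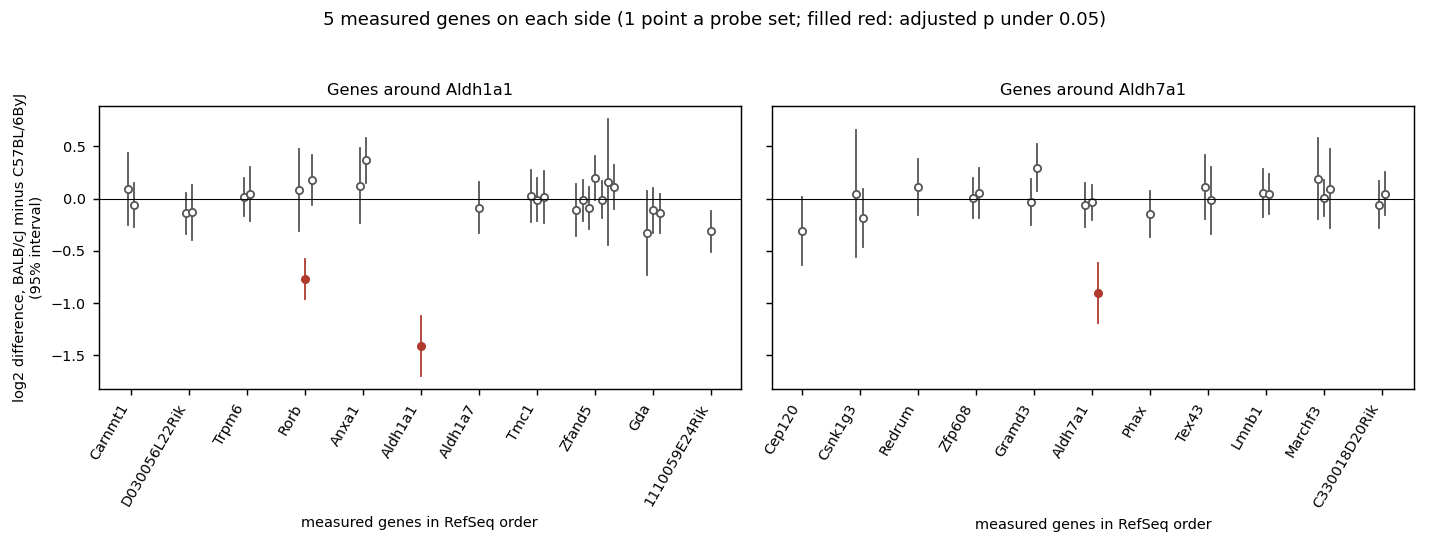
Log2 difference of BALB/cJ from C57BL/6ByJ for each probe set of the 5 measured genes on each side of Aldh1a1 and of Aldh7a1, in gene order, not to scale in distance. The member stands at the centre with -1.41 for Aldh1a1 and -0.90 for Aldh7a1, and of its neighbours 1 probe set of Rorb (-0.77) was called.

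Probe sets whose pattern over the 9 arrays was most like that of a called member were ranked by Pearson's r among 19408 probe sets with 1 gene name at or above the median. The closest to Aldh1a1 were those of Ndufa12, a subunit of respiratory complex I (r = 0.994), Pnma2 (0.991) and the long noncoding RNA Kantr (0.990). The closest to 1460167_at of Aldh7a1 were those of Spock1, a testican proteoglycan (r = 0.995), Rnf41, a ubiquitin ligase (0.992), and Ackr1, a chemokine-binding receptor (0.989). They describe likeness over 9 arrays that share 3 strains and 3 replicate numbers, and carry no test.

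Markers of brain cell types were read for all samples. All 7 neuronal markers lay above the median, and 4 of 6 cerebellar markers (Pcp2, Cbln3, Gabra6 and Car8) were dim. Between the parental strains, where 1.43% of all probe sets were called, limma called Gfap of 9 astrocyte markers higher in BALB/cJ. It called lower there Slc17a7 of 7 neuronal markers, C1qb and C1qc of 7 microglial markers and Cldn5 of 7 markers of endothelium and pericytes. The median differences of these lists were -0.0516, -0.0813, -0.0728 and -0.1251 in that order, beside 0.0181 over all probe sets. Slc17a7 differed by -1.45 (limma adjusted p = 0.00272), while the other neuronal markers ran from -0.12 (Syt1) to 0.09 (Gad1). In the list of Cldn5, Rgs5 went the other way, 0.25 higher in BALB/cJ without a call (limma adjusted p = 0.651). Between B6By.C.132.54 and BALB/cJ, where 1.28% of all probe sets were called, limma called Slc17a7, C1qb and C1qc higher. Gfap and Rgs5, a pericyte gene, were called lower. No marker of oligodendrocytes, choroid plexus, blood or cerebellum was called, but with the replicate block Mal, a myelin protein gene among 6 oligodendrocyte markers, was called lower in BALB/cJ than in C57BL/6ByJ (log2 difference -0.44; limma adjusted p = 0.0349). The summed intensity of neuronal markers was 7999 to 8948 in C57BL/6ByJ, 7388 to 8539 in BALB/cJ and 6902 to 8141 in B6By.C.132.54. In the same order it was 7053 to 7407, 6814 to 6907 and 6330 to 7299 for astrocytes. It was 1180 to 1298, 1062 to 1213 and 1167 to 1364 for microglia, and 717.8 to 742.6, 694.7 to 743.6 and 601.7 to 692.4 for endothelium and pericytes. None of the markers in these lists was dim. The part of these marker differences in those of Aldh1a1 and Aldh7a1 was not tested.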

How the data were processed

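Affymetrix Mouse Genome 430 2.0 arrays of 9 pools of brain hemispheres were deposited as 1 table of signal intensity per probe set on a linear scale. The authors' software was GCOS and RMA, per the submitters' processing notes, without versions or order, so the background correction and the scale of normalization are not given in the sources used here. Of 45101 probe sets, 64 controls were left out. Intensity was taken to log2 without a pseudocount. The 3 strain means were estimated together from the 9 arrays by limma 3.58.1 in R 4.3.3 (lmFit and eBayes, 6 residual and 4.823 prior degrees of freedom), tested two-sided with Benjamini-Hochberg adjustment over 45037 probe sets at 0.05. The model was tested on simulated arrays for BALB/cJ against C57BL/6ByJ, with 50 probe sets above the median changed per size. It called 42% of log2 changes of 0.5, 76% of 1 and 100% of 1.5 and 2, with 13 false calls. The simulated noise was independent between arrays, without a part shared by same-numbered arrays. A difference near 0.5, and at times one near 1, can thus go uncalled. The data gave 644 calls in this comparison, so the share of changed probe sets behind the adjustment differs from the simulated one.

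The platform annotation gave 34945 probe sets 1 symbol, 932 several and 9160 none; 34741 of the first kind were found in RefSeq by Entrez identifier. Every probe set of a member with 1 symbol is shown, and each list gene is measured by its brightest probe set; called genes and the brightest uncalled one are named for the pathway lists, and marker genes were named in part after their values were seen. Members and lists were chosen with earlier results of these data known. Promoter windows came from RefSeq (GRCm38.p6). The member search left out chromosome 18, which holds Aldh7a1, a called member, and it included no window of Aldh2. Motifs before the starts of these genes were therefore not examined. The share over all windows was taken without leaving out a chromosome.

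The design text states 3 batches with all strains in each, and no label ties a replicate number to a batch. Deviations from strain means correlated at 0.148 to 0.67 in the 9 same-numbered pairs of arrays, against -0.58 to 0.273 in the 18 others. These ranges overlap. The main calls and intervals come from the model without the replicate number, which entered as a block only in an alternative. With the number as a block, 953 probe sets instead of 644 were called between the parental strains (2.12%). Alternatives were the block, quantile normalization, a pseudocount of 16, probe sets above the median only, only the compared strains, a trended robust prior and each array left out. With 3 arrays per strain, their number limits the precision, and 61.5% of probe sets held 1 value on at least 2 arrays (11 of the 16 members).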

Additional observations from a re-analysis of the deposited data

How the results depend on the processing

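The replicate number as a block changed no call among the 16 members, which stayed at 2, 0 and 2 called in the 3 comparisons, and in the gene lists it changed only those of Acsl3 and Mal. With that block, Aldh1a1 and Aldh7a1 in BALB/cJ against C57BL/6ByJ had limma adjusted p of 8.43e-06 and 0.000314. In that comparison 644 probe sets were called, and 410 (without C57BL/6ByJ replicate 2) to 706 (without B6By.C.132.54 replicate 3) with 1 array left out. Between B6By.C.132.54 and BALB/cJ, 1 member instead of 2 was called with a pseudocount of 16, 1 with only the strains compared, and 1 to 2 with 1 array left out. Differences of members that were not called changed sign in 43 cases; the cause was not tested. With quantile normalization, B6By.C.132.54 minus C57BL/6ByJ was 0.0143 for Aldh1a1, 0.0004 for Aldh2 1448143_at, -0.0313 for Aldh7a1 1448137_at (-0.0001 with the pseudocount), -0.0156 for Aldh7a1 1415902_at and 0.0361 for Aldh9a1 1437398_a_at. With it, B6By.C.132.54 minus BALB/cJ was 0.0246 for Aldh1a2 and 0.0181 for Aldh9a1 1436689_a_at. The others changed sign when 1 array was left out, and their lowest and highest values follow. For BALB/cJ minus C57BL/6ByJ these were Aldh1a2 1422789_at -0.0598 to 0.28, Aldh1a7 1418601_at -0.18 to 0.0197, Aldh1b1 1451260_at -0.10 to 0.0255, Aldh2 1448143_at -0.0806 to 0.14, Aldh2 1434988_x_at -0.0653 to 0.12, Aldh2 1434987_at -0.0640 to 0.24, Aldh5a1 1453065_at -0.0815 to 0.0052, Aldh7a1 1415902_at -0.0936 to 0.0091 and Aldh9a1 1437398_a_at -0.0431 to 0.0998. For B6By.C.132.54 minus C57BL/6ByJ these were Aldh1a1 1416468_at -0.19 to 0.0417, Aldh1a2 1422789_at -0.0126 to 0.17, Aldh1b1 1451260_at -0.18 to 0.0804, Aldh2 1434988_x_at -0.0165 to 0.78, Aldh2 1434987_at -0.13 to 0.73, Aldh7a1 1448137_at -0.0247 to 0.0327, Aldh7a1 1415902_at -0.0459 to 0.0896 and Aldh9a1 1437398_a_at -0.10 to 0.0297. For B6By.C.132.54 minus BALB/cJ these were Aldh1a2 1422789_at -0.19 to 0.15, Aldh1b1 1451260_at -0.12 to 0.14, Aldh2 1448143_at -0.22 to 0.0021, Aldh2 1434988_x_at -0.0583 to 0.74, Aldh2 1434987_at -0.20 to 0.65, Aldh9a1 1436689_a_at -0.0636 to 0.0168 and Aldh9a1 1437398_a_at -0.14 to 0.0097. Of the other alternative values of single members, 653 kept their direction and side of the threshold, and 6, all of Aldh7a1 between B6By.C.132.54 and BALB/cJ, lost the call.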
